A study of Caenorhabditis elegans with 6 samples.

Results

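Worms given baicalein dissolved in DMSO were set against worms given water, on 4 of the 6 arrays of the series. All 6 arrays measured RNA from whole wild-type N2 animals of Caenorhabditis elegans, grown in liquid medium at 20 °C. Baicalein, a plant flavone, was present at 100 µM from 16 to 18 h after hatching and for 48 h, so that the animals were collected 3 days after hatching (2 arrays). The solvent alone, DMSO at 0.4%, was given to another 2 cultures, and water to the remaining 2. Baicalein was dissolved in DMSO at the same 0.4%, so baicalein and water worms differed in both compound and solvent. With these 4 arrays the parts of compound and solvent cannot be told apart, and the DMSO arrays are given wherever the values of single arrays are. Both water comparisons share the water arrays, and both baicalein comparisons share the baicalein arrays. Within a group the arrays are labelled as independent trials. The spread behind a p-value was pooled over all 6 arrays, DMSO included, and drawn towards a value shared by all probe sets. It reaches no further than these arrays, and their small number limits the precision.

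The hermaphrodite grows through larval stages that each end with a molt, when epidermal cells replace the collagen cuticle under a temporary precuticle. Nuclear receptors such as NHR-23 drive the molting genes in pulses, and each stage builds its cuticle from its own set of collagens. At the passage to adulthood the germ line first makes sperm and then oocytes, the intestine begins to secrete yolk, and the oocytes prepare the components of the eggshell. Genes for yolk, major sperm proteins and eggshell on one side, and for precuticle and molt on the other, therefore mark how far a culture has developed.

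Expression is given as the deposited log2 RMA value of a probe set, the set of probes that reads one transcript. A difference of 1 on that scale is a change by a factor of 2. The median of all values, 1.51, was taken as the background, and a fold against a mean under it is a lower bound with that mean raised to 1.51. Array medians lay at 1.5 and 1.59 for baicalein, 1.42 and 1.48 for DMSO, and 1.58 and 1.54 for water. The upper quartiles of the baicalein arrays, 2.74 and 2.46, were lower than those of the water arrays, 3.23 and 3.26. Correlations over all probe sets, a description in which every point shares the array's processing, were 0.954 within baicalein, 0.986 within water, and 0.805 to 0.832 between a baicalein and a water array. Baicalein and DMSO arrays correlated at 0.911 to 0.943.

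All cultures are labelled as young adults. Stage markers could be read only where the study's own comparisons of these same arrays gave a gene name, and the others were left unread. How many of the named markers differed therefore depends in part on that selection. Of all named genes 17.0% were higher in baicalein than in water and 16.5% were lower, at an adjusted p under 0.05. Named markers of the adult stage went against the label in the water arrays. Of 16 adult hermaphrodite markers, 6 had a name in those comparisons, and all 6 were higher in baicalein (median log2 difference 6.16, or 6.03 with means under the background raised to it). Summed on the linear scale and returned to log2, their level was 11.56 and 11.48 in baicalein, 11.97 and 11.9 in DMSO, and 5.17 and 4.51 in water. In water, vit-1 and vit-2, both vitellogenins, read 1.06 and 1.48 for vit-1 and 1.45 and 1.70 for vit-2, at or near the background. Of 15 molt and larval cuticle markers, 6 were named, and all 6 were lower in baicalein (median -4.24, or -4.16 with means raised to the background). Their level summed in that way was 4.55 and 4.43 in baicalein, 5.48 and 5.33 in DMSO, and 9.65 and 9.77 in water. Baicalein and DMSO arrays thus showed the named adult markers at high levels, whereas water arrays showed the named molt markers at high levels and yolk at or near the background. The part of developmental stage in the results that follow was not tested. Since whole animals were used, fewer cells of a type and less RNA per cell cannot be told apart either.

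Across 29317 probe sets, 6505 (22.2%) differed between baicalein and water at an adjusted p under 0.05 (limma fit over the 6 arrays, Benjamini-Hochberg adjustment). Of these, 1992 (6.79%) were higher in baicalein and 4513 (15.4%) were lower. Lower calls were the more numerous at 2-fold or more (1238 higher, 3634 lower), at 4-fold (477 higher, 1379 lower) and at 16-fold (124 higher, 201 lower), and higher calls at 64-fold (52 higher, 23 lower). In 981 of the higher calls the water mean was at or under the background, and in 1587 of the lower calls the baicalein mean was. The balance of directions depended on how arrays were scaled. It was 2723 higher and 3107 lower when quantile normalization was applied again, and 3097 higher and 3656 lower after cyclic loess, so that 46.7% and 45.9% of calls were higher, against 30.6% as deposited. Leaving out 1 water array lowered both counts, to 808 higher and 2776 lower without water replicate 1, and to 729 higher and 2600 lower without water replicate 2. With baicalein replicate 1 removed the counts were 3406 higher and 5419 lower. No probe set called both as deposited and under one of these settings changed direction. Such a probe set had to pass in both fits, which share most arrays, so a reversal could hardly arise.

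**Figure D1:**
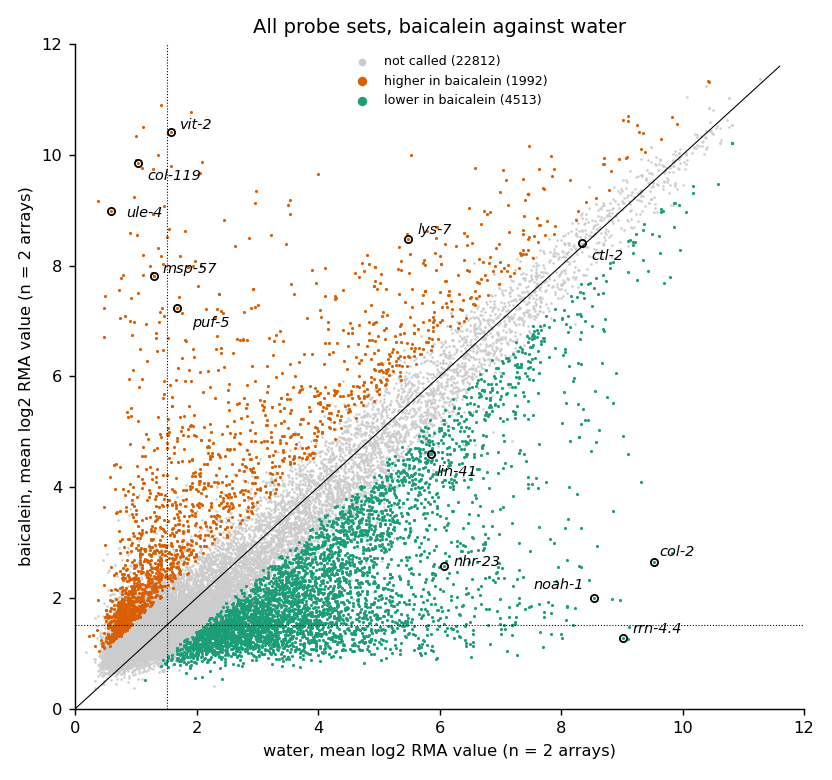
Mean log2 RMA value of each of 29317 probe sets in baicalein (vertical axis) and water (horizontal axis), 2 arrays each, with orange points higher in baicalein, green points lower and grey points not called. The dotted lines mark the background of 1.51 and the solid line equal levels; vit-2, col-119 and ule-4 stand far above that line, and noah-1, col-2 and rrn-4.4 far below it.

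Gene names could be given to 4957 probe sets, those listed in a deposited table, either that of baicalein against its solvent or that of the solvent against water, and 4911 genes had a probe set of their own. These tables were drawn up by the study from the same arrays, so named genes are not a fair sample: 17.0% of them were higher in baicalein and 16.5% were lower, with a median difference of 0.19, against 0.07 over all probe sets. Among the 24360 probe sets without a name 19.9% were called, 4.72% higher and 15.2% lower. Groups whose 4 arrays did not overlap were common here, so a lack of overlap sets few genes apart. Both baicalein arrays lay on one side of both water arrays in 69.1% of all probe sets. The share was 80.4% of named genes and 66.8% of probe sets without a name. The counts of gene groups below are to be read against the shares of named genes. In several groups they also depended on which of the study's comparisons had named the members.

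Cuticle collagens divided into a set that rose steeply and a larger set that fell. Of 53 named collagen genes, 13 were higher in baicalein, 33 were lower and 7 did not pass, from a 117-fold fall to a rise of at least 322-fold (median log2 difference -1.56). The collagen gene col-119 read 9.94 and 9.75 in baicalein, 9.32 and 9.26 in DMSO, and 1.08 and 1.0 in water. It was at least 322-fold higher in baicalein than in water (limma, adjusted p = 4.21e-06). Likewise col-106 read 9.86 and 9.74 in baicalein, 9.30 and 9.33 in DMSO, and 1.52 and 1.64 in water, a 298-fold rise. On the falling side, col-2 read 2.59 and 2.71 in baicalein, 1.90 and 1.88 in DMSO, and 9.61 and 9.44 in water. That gene fell 117-fold, by 6.87 ± 0.17 on the log2 scale (SE, limma, adjusted p = 6.33e-06). Lower by 58.6-fold was col-167, with 2.39 and 1.45 in baicalein, 0.97 and 1.78 in DMSO, and 8.11 and 7.48 in water. The body-shape collagen gene dpy-5, needed for normal body length, read 4.03 and 4.16 in baicalein, 3.38 and 3.75 in DMSO, and 9.39 and 9.24 in water, and fell 37.2-fold. For all of these genes the baicalein and DMSO arrays lay on the same side of the water arrays, far apart from them, and col-2 was higher in baicalein than in DMSO (limma, adjusted p = 0.040). The table that named a collagen mattered to the balance: of 32 named in the table of baicalein against DMSO, 12 were higher and 15 lower (median 0.08), and of 32 named in the table of DMSO against water, 3 were higher and 26 lower (median -3.43).

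Precuticle and molting genes fell together. Among 10 genes of the precuticle and its zona pellucida proteins, 8 were lower in baicalein, none was higher and 2 did not pass (median -4.78, or -4.62 with means raised to the background). NOAH-1 and NOAH-2 are zona pellucida proteins of the temporary precuticle that holds the epidermis to the old cuticle. The noah-1 probe set read 2.16 and 1.85 in baicalein, 1.45 and 1.20 in DMSO, and 8.49 and 8.6 in water, a fall of 6.54 ± 0.19 on the log2 scale (SE, 93.3-fold, limma, adjusted p = 9.5e-06). Its partner noah-2 read 1.92 and 1.77 in baicalein, 1.92 and 2.56 in DMSO, and 8.01 and 8.19 in water (76.1-fold lower). The lipocalin gene lpr-3 was 68.7-fold lower, with 1.53 and 1.94 in baicalein, 1.42 and 1.46 in DMSO, and 7.88 and 7.79 in water. The leucine-rich repeat gene sym-1 was 42.1-fold lower, with 2.71 and 2.41 in baicalein, 1.79 and 1.88 in DMSO, and 7.87 and 8.04 in water. In all 4 the baicalein values lay at 2.71 or below and the water values at 7.79 or above.

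All 8 named molting enzymes and regulators were lower in baicalein (median -2.4, or -2.32 with means raised to the background). The protease inhibitor gene mlt-11 read 1.72 and 1.29 in baicalein, 1.47 and 1.16 in DMSO, and 6.20 and 6.33 in water, at least 27-fold lower in baicalein. The leucine-rich repeat gene pan-1 was 8.23-fold lower, and tyr-2, which encodes a tyrosinase-like enzyme, was 4.78-fold lower. For nhr-23, the receptor that drives molting cycles, the 3 groups differed from one another. It read 2.58 and 2.56 in baicalein, 4.91 and 4.62 in DMSO, and 6.10 and 6.06 in water. The baicalein level was 11.4-fold under that of water (log2 difference -3.51 ± 0.18, SE, limma, adjusted p = 4.75e-05), and baicalein and DMSO differed by -2.20 (adjusted p = 0.0053). Hedgehog-related and patched-related proteins, a large nematode family with roles in the cuticle and molting, showed 13 of 16 genes lower and none higher (median -2.27). Its member wrt-4 read 1.95 and 1.62 in baicalein, 1.11 and 1.45 in DMSO, and 5.92 and 6.01 in water, an 18.1-fold fall, and qua-1 was at least 11.8-fold lower. Only grd-3 of the members named here did not pass, with 7.67 and 7.80 in baicalein, 7.01 and 6.70 in DMSO, and 7.42 and 7.38 in water. Proteins with prion-like stretches rich in glutamine and asparagine, several of them parts of the pharyngeal cuticle, counted 9 lower and none higher of 15 (3 lower without water replicate 1 and 1 without water replicate 2, and 2 higher with 3 lower under repeated quantile normalization).

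Yolk and eggshell genes were among the largest rises of the comparison. Of 13 named genes 10 were higher in baicalein, 1 was lower and 2 did not pass (median 3.77). The vitellogenin gene vit-2 read 10.49 and 10.32 in baicalein, 10.14 and 10.06 in DMSO, and 1.45 and 1.70 in water. It rose 456-fold, by 8.83 ± 0.18 on the log2 scale (SE, limma, adjusted p = 4.21e-06). Its relative vit-1 read 7.90 and 7.83 in baicalein, 8.37 and 8.30 in DMSO, and 1.06 and 1.48 in water, at least 81.6-fold higher. The uterine lumen gene ule-4 read 9.06 and 8.91 in baicalein, 8.50 and 8.07 in DMSO, and 0.52 and 0.65 in water, at least 177-fold higher. The eggshell proteoglycan genes cpg-1 and cpg-2 were 49.4-fold and 52.7-fold higher, and cbd-1, for a chitin-binding eggshell protein, was 19.6-fold higher. For cpg-1 the arrays read 8.43 and 8.55 in baicalein, 9.95 and 9.94 in DMSO, and 3.31 and 2.42 in water. Between baicalein and DMSO, vit-1 and vit-2 did not pass (limma, adjusted p = 0.24 and 0.42), whereas cpg-1 and cpg-2 were lower in baicalein by 1.45 and 1.34 on the log2 scale (limma, adjusted p = 0.032 and 0.044). The fall was in perm-5, needed for a tight eggshell, with 2.08 and 1.84 in baicalein, 4.26 and 4.01 in DMSO, and 3.26 and 3.68 in water. Without either water array the yolk and eggshell counts stayed within 1.5 times those above.

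**Figure D2:**
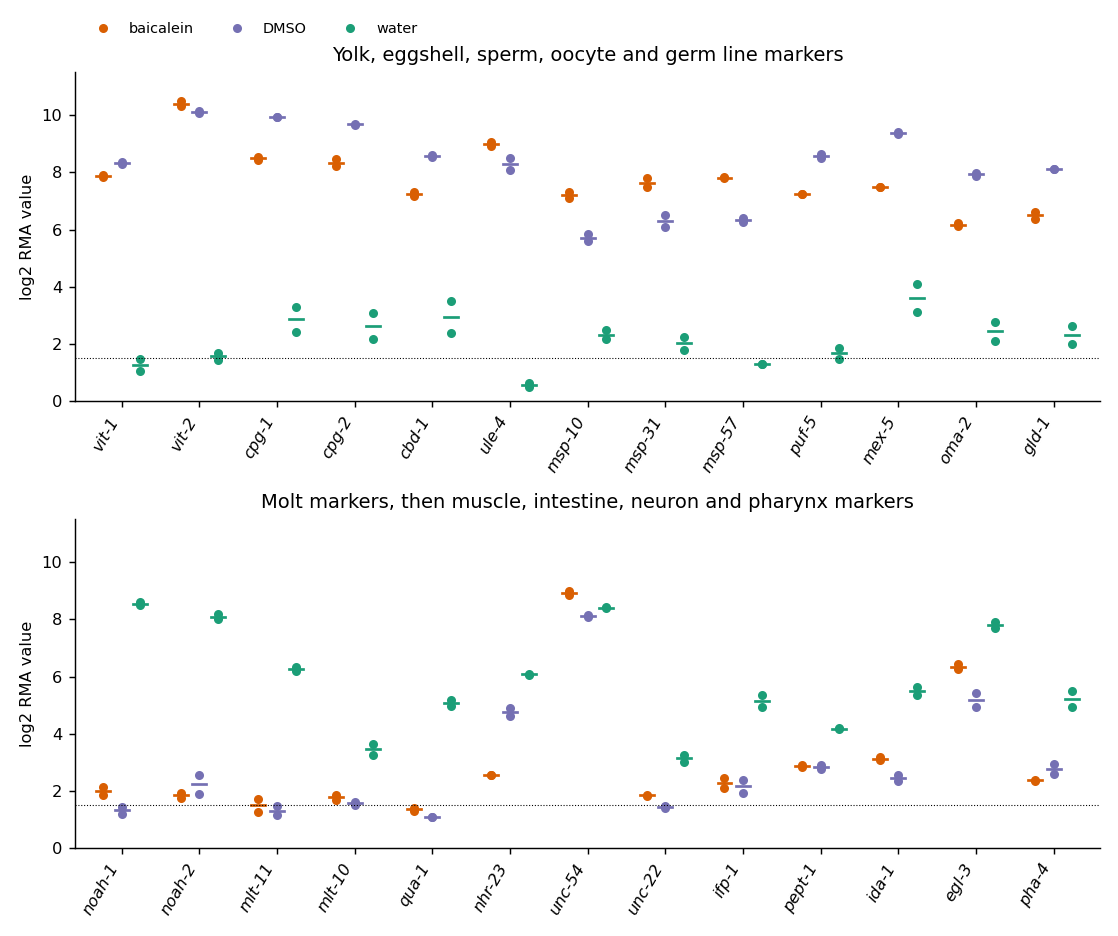
Log2 RMA value of each array (points) and group mean (bars) for markers of the adult reproductive system (upper panel) and of molt and tissues (lower panel), with baicalein, DMSO and water from left to right for each gene. Both water arrays lie under both baicalein arrays for all 13 genes of the upper panel and above them for all 6 molt markers from noah-1 to nhr-23, and the dotted line marks the background of 1.51. The genes drawn were chosen from the named markers. Of 7 named oocyte markers 6 were higher in baicalein and 1 was lower, lin-41, which is not drawn.

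Sperm genes rose as well. Major sperm proteins form the cytoskeleton of the crawling nematode sperm and signal to oocytes, and 9 of their 10 named genes were higher in baicalein (median 5.25, or 5.16 with means raised to the background). The probe set of msp-57 read 7.81 and 7.82 in baicalein, 6.27 and 6.41 in DMSO, and 1.29 and 1.29 in water, at least 79-fold higher than in water (limma, adjusted p = 6.33e-06). For msp-40 the values were 8.34 and 8.0 in baicalein, 6.51 and 6.72 in DMSO, and 1.48 and 1.35 in water, at least 101-fold higher. Baicalein exceeded DMSO by 1.48 for msp-57 and by 1.56 for msp-40 on the log2 scale (limma, adjusted p = 0.0073 and 0.0092). Genes of this family are near-identical in sequence, so one probe set may read several of them. Together with other sperm genes and the small nematode-specific peptides, the list counted 20 higher, 1 lower and 12 not passing of 33 (median 1.95). The lower one was nspb-1, a nematode-specific peptide gene, with 0.99 and 1.41 in baicalein, 1.1 and 0.97 in DMSO, and 2.65 and 2.54 in water.

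Oocyte genes were for the most part higher in baicalein than in water, and their median level was below that of DMSO. Of 50 genes of oocytes and early embryos 30 were higher, 5 lower and 15 did not pass (median 1.28). The medians of the members' levels were 4.41 in baicalein, 6.12 in DMSO and 2.58 in water. The gene puf-5, for an RNA-binding protein of the PUF family that acts in oocytes, read 7.24 and 7.23 in baicalein, 8.65 and 8.50 in DMSO, and 1.88 and 1.47 in water, a 47.3-fold rise over water (limma, adjusted p = 1.46e-05). The Y-box gene cey-3 rose 27.1-fold, with 7.19 and 6.92 in baicalein, 8.19 and 8.18 in DMSO, and 2.43 and 2.16 in water. Mex-5, for a zinc finger protein of embryonic polarity, rose 14.8-fold, and oma-2, needed for oocyte maturation, rose 13.3-fold. The translational repressor gene gld-1 read 6.37 and 6.63 in baicalein, 8.13 and 8.13 in DMSO, and 2.62 and 2.02 in water (18.2-fold higher). In these genes the baicalein arrays stood between the DMSO and the water arrays. The opposite was seen for lin-41, which acts both in oocytes and in larval timing: it read 4.73 and 4.46 in baicalein, 6.25 and 6.41 in DMSO, and 5.78 and 5.92 in water, and fell 2.39-fold (limma, adjusted p = 0.00412). The lower count was 3 without water replicate 1 and 1 without water replicate 2.

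Meiosis and germ line proliferation counted 11 higher, 1 lower and 18 not passing of 30 (median 0.50, with 6 higher without water replicate 1 and 5 without water replicate 2). The chromosome axis gene him-3 read 5.22 and 3.90 in baicalein, 6.86 and 7.01 in DMSO, and 1.24 and 0.96 in water, at least 8.26-fold higher. The nuclear envelope gene sun-1, which links meiotic chromosomes to the cytoskeleton, was at least 3.73-fold higher, and zim-2, for a zinc finger protein of chromosome pairing, was 3.89-fold higher. Argonaute and other small RNA genes counted 11 higher, 2 lower and 18 not passing of 31 (5 higher and 1 lower without water replicate 1, 7 higher and none lower without water replicate 2). The germ line Argonaute gene wago-1 rose 14.8-fold, with 7.03 and 6.27 in baicalein, 8.06 and 8.17 in DMSO, and 3.03 and 2.5 in water. The P granule gene deps-1 rose 14.1-fold, with 6.76 and 6.54 in baicalein, 7.39 and 7.38 in DMSO, and 3.21 and 2.45 in water.

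Most genes of DNA replication and cell division did not pass against water. For 37 replication genes the medians of the levels were 3.12 in baicalein, 5.14 in DMSO and 2.98 in water, and 28 of them did not pass, 8 were higher and 1 was lower. The largest rise among those named was in psf-1, a subunit of the replicative helicase, with 5.67 and 5.63 in baicalein, 6.82 and 6.72 in DMSO, and 3.75 and 4.13 in water (3.26-fold, limma, adjusted p = 0.00132). The single-strand binding gene rpa-4 went the other way, with 2.51 and 3.03 in baicalein, 4.30 and 4.09 in DMSO, and 4.19 and 4.71 in water, a fall that did not pass under repeated quantile normalization (limma, adjusted p = 0.0984). The higher count was 1 when either water array was left out and 14 when baicalein replicate 2 was, and it was 15 under repeated quantile normalization and 19 under cyclic loess. Mitosis and cytokinesis counted 10 higher, 7 lower and 42 not passing of 59, a count that turned to 24 higher and 3 lower under repeated quantile normalization. Of this list 4 were lower without water replicate 1, 3 without water replicate 2 and 11 without baicalein replicate 1. B-type cyclins, which drive entry into mitosis, differed among themselves: cyb-1 read 6.21 and 6.31 in baicalein, 7.38 and 7.24 in DMSO, and 3.91 and 3.47 in water (5.95-fold higher), and cyb-3 rose 4.88-fold. In contrast cyb-2.1, a close relative chosen here after its values were seen, read 2.01 and 1.25 in baicalein, 4.32 and 4.61 in DMSO, and 2.66 and 3.39 in water, and was 2.63-fold lower (limma, adjusted p = 0.0295). That call was lost without water replicate 2 (adjusted p = 0.174), without baicalein replicate 2 (0.086), without either DMSO array (0.0649), under repeated quantile normalization (0.13) and under cyclic loess (0.0626). A spindle regulator of G protein signalling, gpr-2, was at least 6.51-fold lower, with 0.96 and 0.89 in baicalein, 1.93 and 2.09 in DMSO, and 4.32 and 4.12 in water. The CLASP-type microtubule gene cls-1 was 4.11-fold lower. Of 27 DNA repair genes 25 did not pass, and exo-1 and exo-3, for DNA nucleases, rose 2.31-fold and 3.38-fold, while 6 genes of this list were higher without baicalein replicate 2, 10 under repeated quantile normalization and 13 under cyclic loess.

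Most genes of the nuclear machinery did not pass. Chromatin genes counted 3 higher, 10 lower and 33 not passing of 46 (median -0.09), but 10 higher and 3 lower under repeated quantile normalization (median 0.30), and none higher without either water array (3 lower without water replicate 1 and 2 without water replicate 2). The SWI/SNF ATPase gene swsn-4 read 3.38 and 2.74 in baicalein, 5.24 and 5.07 in DMSO, and 4.65 and 5.06 in water, a 3.47-fold fall. The acetyltransferase gene cbp-1 fell 2.32-fold. Nuclear pore and transport genes counted 3 higher and 8 lower of 30 (median -0.65), with 1 higher without either water array, 2 lower without water replicate 2 and 15 lower without baicalein replicate 1. The nucleoporin gene npp-12 fell 2.94-fold and the importin alpha gene ima-3 fell 2.60-fold, whereas the mRNA export gene nxf-2 was at least 2.62-fold higher. Spliceosome genes counted 3 higher and 4 lower of 24, and their median of -0.25 became 0.33 under repeated quantile normalization (1 higher without either water array, and 7 lower without baicalein replicate 1). Within that list prp-8, the core splicing factor, fell 3.49-fold. The largest rise there, 8.94-fold, was in rnp-8, whose product is known as a partner of a cytoplasmic poly(A) polymerase in the germ line.

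**Figure D3:**
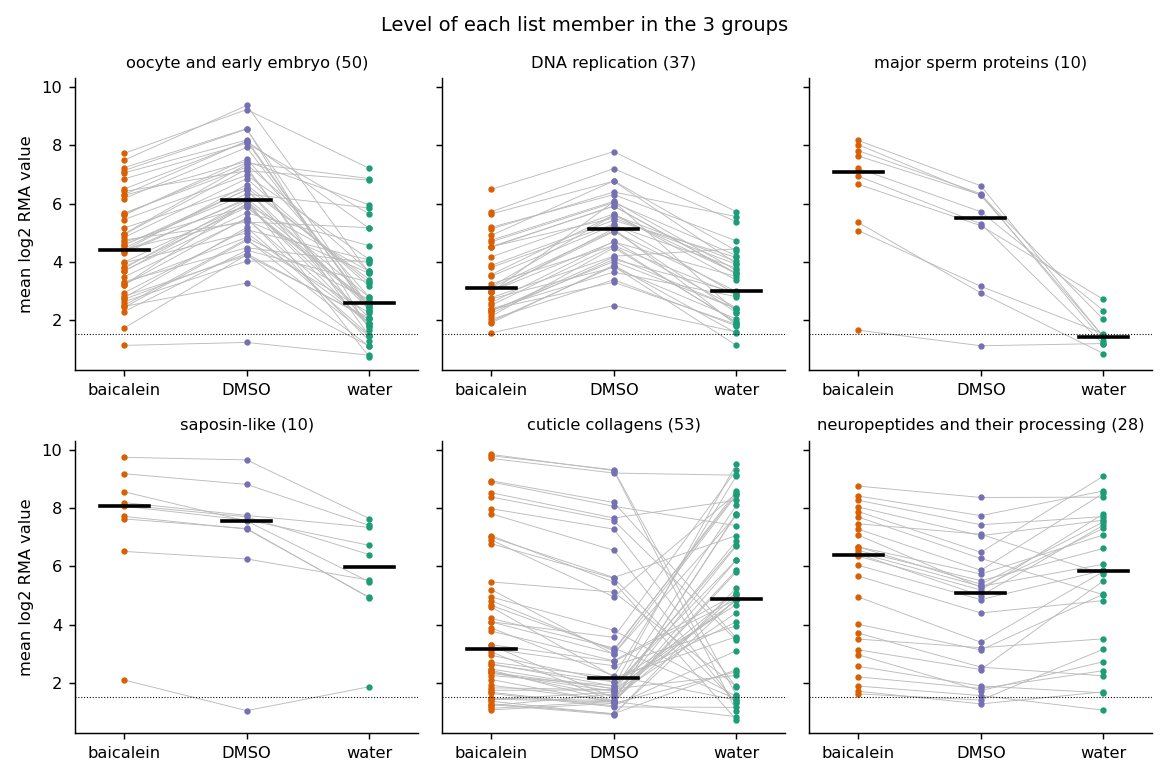
Mean log2 RMA value of each member of 6 gene lists in baicalein, DMSO and water, 2 arrays each, with grey lines joining the values of one gene and black bars at the median. Oocyte genes have medians of 4.41, 6.12 and 2.58 in that order and replication genes 3.12, 5.14 and 2.98, while the saposin-like genes have medians of 8.08, 7.57 and 5.97.

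Saposin-like proteins and lysozymes are used by the intestine against ingested bacteria. Of 10 saposin-like genes 9 were higher and 1 did not pass (median 1.74), and the medians of their levels were 8.08 in baicalein, 7.57 in DMSO and 5.97 in water. The probe set of spp-4 read 8.58 and 8.54 in baicalein, 7.61 and 7.50 in DMSO, and 5.53 and 5.41 in water, an 8.52-fold rise over water (limma, adjusted p = 5.83e-05). Genes spp-18 and spp-8 rose 6.85-fold and 6.55-fold. Lysozymes counted 4 higher and 2 not passing of 6, with 2 higher without either water array. The lysozyme gene lys-7 read 8.67 and 8.28 in baicalein, 7.48 and 7.05 in DMSO, and 5.40 and 5.57 in water, a 7.92-fold rise (log2 difference 2.98 ± 0.23, SE, limma, adjusted p = 0.000278), and lys-8 rose 4.41-fold. All 3 groups were separate for lys-7, and baicalein exceeded DMSO by 1.21 (adjusted p = 0.026).

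C-type lectins, a family of carbohydrate-binding proteins with many members that respond to infection, counted 18 higher, 4 lower and 16 not passing of 38 (median 0.53, with 9 higher without water replicate 1 and 8 without water replicate 2). On the rising side clec-85 read 7.84 and 7.74 in baicalein, 7.39 and 7.34 in DMSO, and 4.72 and 4.65 in water (8.63-fold), and clec-52 rose 8.97-fold. On the falling side clec-82 read 5.53 and 5.50 in baicalein, 4.02 and 3.38 in DMSO, and 8.82 and 8.89 in water (10.1-fold lower). Another, clec-60, read 7.72 and 7.67 in baicalein, 5.50 and 5.41 in DMSO, and 9.67 and 9.71 in water (3.98-fold lower). In both of these the baicalein level lay between the other groups. The antimicrobial peptide gene nlp-28 rose 9.0-fold, with 10.06 and 9.45 in baicalein, 9.27 and 9.17 in DMSO, and 6.50 and 6.68 in water. A list of infection-response and DAF-16-linked genes was split, 9 higher and 8 lower of 40 (median 0.01, with 3 higher without water replicate 1 and 4 without water replicate 2). It held dod-23, which rose 72.1-fold (9.2 and 9.07 in baicalein, 8.57 and 8.38 in DMSO, 3.01 and 2.90 in water), and irg-8, which fell 2.87-fold. The thaumatin-like gene thn-2 read 5.67 and 5.33 in baicalein, 3.90 and 3.20 in DMSO, and 2.5 and 2.84 in water, 7.10-fold higher than in water.

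Stress and detoxification genes were mixed, and several of their families held few calls. Metallothioneins bind metals and respond to heavy metal and insulin signalling, and mtl-2 read 7.42 and 7.71 in baicalein, 5.19 and 4.81 in DMSO, and 4.75 and 5.20 in water. It rose 6.04-fold over water, by 2.59 ± 0.24 on the log2 scale (SE, limma, adjusted p = 0.000573), and DMSO and water overlapped. For mtl-1 the arrays read 8.18 and 8.12 in baicalein, 6.08 and 5.82 in DMSO, and 7.40 and 7.76 in water, and the difference of 0.57 from water did not pass (95% interval 0.09 to 1.05, limma, adjusted p = 0.0889). Antioxidant enzymes counted none higher, 2 lower and 7 not passing of 9. The intestinal thioredoxin gene trx-3 fell 9.69-fold, with 4.15 and 4.21 in baicalein, 2.84 and 3.11 in DMSO, and 7.35 and 7.57 in water. Heat shock proteins and chaperones counted 2 higher and 9 lower of 20 (4 lower without water replicate 1 and 3 without water replicate 2). Sip-1, an embryonic small heat shock protein gene, rose 6.52-fold, and pdi-6, for a protein disulfide isomerase, fell 2.91-fold. Among conjugating enzymes 2 of 10 glutathione transferases were higher, with gst-20 at 9.05 and 8.93 in baicalein, 7.78 and 7.68 in DMSO, and 7.04 and 6.43 in water (4.78-fold). With either water array, either DMSO array or baicalein replicate 1 left out, 1 of the 10 was higher. Of 6 glucuronosyl transferases 1 was higher, ugt-31 (6.09-fold), and 2 were lower (none lower without water replicate 2). None of 5 cytochrome P450 genes passed as deposited, and 2 were higher under cyclic loess.

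Neuropeptide and synaptic genes were mixed, with more falls than rises. Neuropeptides and their processing enzymes counted 5 higher, 9 lower and 14 not passing of 28 (median -0.04, with 5 lower without either water array). The dense core vesicle gene ida-1 read 3.18 and 3.08 in baicalein, 2.36 and 2.56 in DMSO, and 5.36 and 5.65 in water, a 5.17-fold fall. The proprotein convertase gene egl-3, which cuts peptide precursors, fell 2.74-fold, with 6.26 and 6.44 in baicalein, 4.96 and 5.42 in DMSO, and 7.69 and 7.91 in water. In both genes the baicalein arrays lay above DMSO and below water. The FMRFamide-like peptide gene flp-28 went up 6.34-fold, with 7.91 and 7.48 in baicalein, 6.22 and 6.32 in DMSO, and 5.04 and 5.01 in water, and flp-6 rose 3.32-fold. Synaptic genes counted 1 higher and 7 lower of 16 (median -0.37, with 4 lower without water replicate 1, 3 without water replicate 2, and 2 higher with 4 lower under repeated quantile normalization). Of 11 synaptic genes named by the comparison of baicalein against DMSO 1 was higher and 3 were lower (median -0.12). Of 6 named by DMSO against water 4 were lower (median -1.58). The vesicle priming gene unc-13 fell 4.58-fold, with 2.33 and 1.81 in baicalein, 2.18 and 2.59 in DMSO, and 4.23 and 4.30 in water. The GABA receptor gene unc-49 fell 4.57-fold and the active zone gene unc-10 fell 3.79-fold. Of 5 named neuron markers 4 were lower.

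Muscle genes went in both directions. Sarcomere genes counted 6 higher, 8 lower and 12 not passing of 26 (3 higher and 4 lower without water replicate 1, 3 higher and 3 lower without water replicate 2). The balance differed with the comparison that gave the name. Of 18 sarcomere genes named by baicalein against DMSO 5 were higher and 3 lower (median 0.20). Of 9 named by DMSO against water 1 was higher and 6 lower (median -1.30). The myosin light chain gene mlc-7 rose 41.8-fold, with 7.10 and 7.18 in baicalein, 6.31 and 6.06 in DMSO, and 1.54 and 1.96 in water. Tni-3, a troponin I gene, rose 5.40-fold, with 7.14 and 6.77 in baicalein, 5.85 and 6.15 in DMSO, and 4.56 and 4.49 in water. The main body wall myosin gene unc-54 read 8.99 and 8.86 in baicalein, 8.14 and 8.07 in DMSO, and 8.39 and 8.43 in water, a difference of 0.52 that did not pass (limma, adjusted p = 0.0667) but passed with a variance trend on intensity (adjusted p = 0.0141). The integrin gene pat-2, which anchors muscle to the basement membrane, fell 5.24-fold and the twitchin gene unc-22 fell 2.46-fold. Intestinal filament and digestion genes counted 7 lower, none higher and 4 not passing of 11 (median -1.21). Of 5 named by the comparison of baicalein against DMSO 2 were lower (median -0.52). Of 6 named by DMSO against water 5 were lower (median -1.48). Among those not passing, aqp-11 read 6.42 and 6.27 in baicalein, 5.34 and 5.72 in DMSO, and 5.74 and 5.74 in water. Its difference was 0.60 (limma, adjusted p = 0.0708). The intermediate filament gene ifp-1 read 2.46 and 2.11 in baicalein, 1.94 and 2.41 in DMSO, and 4.95 and 5.37 in water, a 7.34-fold fall. Its relative ifd-2 fell 3.51-fold, and the peptide transporter gene pept-1 fell 2.49-fold, with 2.91 and 2.83 in baicalein, 2.91 and 2.76 in DMSO, and 4.16 and 4.21 in water.

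**Figure D4:**
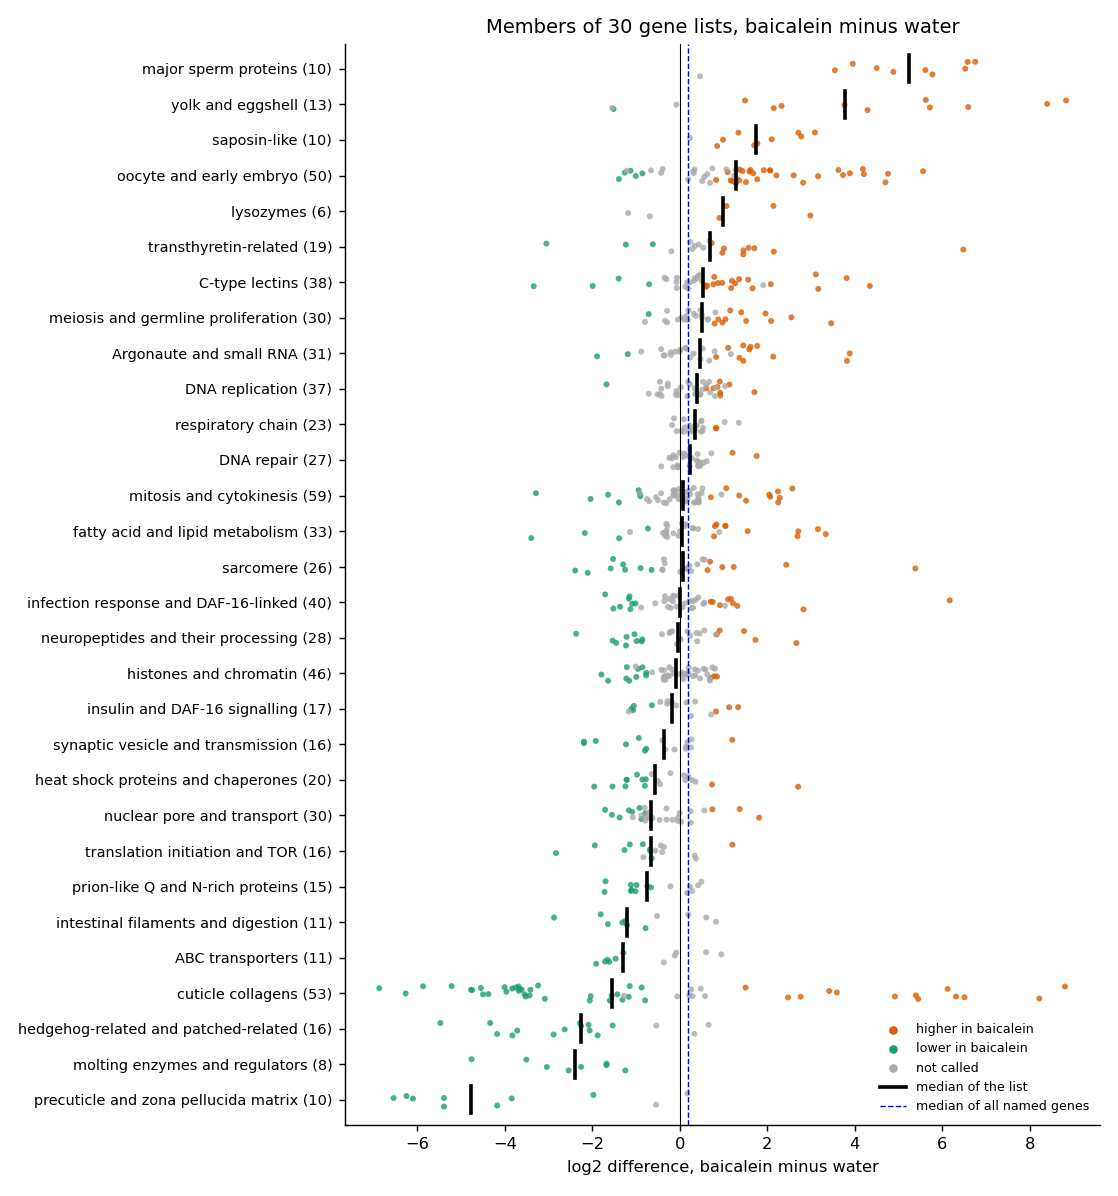
Log2 difference between baicalein and water of every named member (points) of 30 gene lists, with the number of members in brackets, orange for higher, green for lower and grey for not called. Black bars are list medians, from 5.25 for major sperm proteins to -4.78 for the precuticle, and the dashed line is the median of all named genes, 0.19.

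Most metabolic genes did not pass. Of 23 respiratory chain genes 2 were higher and 21 did not pass (median 0.35), and neither call held without water replicate 2. In the tricarboxylic acid cycle 1 of 15 was higher, and in glycolysis and trehalose metabolism 1 of 6; the first call was lost without water replicate 2, baicalein replicate 1 or either DMSO array, and the second without either water array or baicalein replicate 2. Fatty acid and lipid genes counted 10 higher, 4 lower and 19 not passing of 33 (6 higher and 2 lower without either water array). The acid ceramidase gene asah-1 read 10.26 and 10.05 in baicalein, 9.60 and 9.63 in DMSO, and 7.59 and 7.34 in water, a 6.46-fold rise. Far-2, for a protein that binds fatty acids and retinol, rose 10.1-fold, with 7.83 and 8.27 in baicalein, 7.49 and 7.51 in DMSO, and 4.78 and 4.65 in water. The fatty acid synthase gene fasn-1 fell 4.51-fold, with 4.69 and 4.53 in baicalein, 4.29 and 3.96 in DMSO, and 6.60 and 6.97 in water. Lysosomal proteases and the proton pump counted 8 higher and 2 lower of 21 (5 higher without either water array). Of 14 lysosomal genes named by the comparison of baicalein against DMSO 2 were higher and 2 lower (median 0.17). Of 8 named by DMSO against water 6 were higher and 0 lower (median 1.17). None of 12 aminoacyl-tRNA synthetase genes passed as deposited, and 3 were higher under repeated quantile normalization. Of 10 ribosomal protein genes 2 were higher. One of these, rpl-11.1, rose 5.86-fold, with 9.03 and 9.03 in baicalein, 9.72 and 9.60 in DMSO, and 6.60 and 6.37 in water; its close copy rpl-11.2 read 9.79 and 9.70 in baicalein, 9.10 and 9.15 in DMSO, and 10.09 and 9.78 in water, and probes may not keep the pair apart.

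The study names a set of genes on these arrays in the pathways of insulin, TOR, NAD and defence, and their levels were also set against water. The study itself compared lys-7 and the spp genes between DMSO and water, and the others between baicalein and DMSO. The differences below are of another contrast and do not test those values. Among the genes the study names, lys-7, spp-8, mtl-2, spp-2, ife-3 and spp-1 were higher and pha-4, daf-16 and akt-1 were lower. Against DMSO, the study reports ife-3 as lower and pha-4 as higher in baicalein. For spp-2 the arrays read 9.88 and 9.61 in baicalein, 9.77 and 9.55 in DMSO, and 7.57 and 7.72 in water (4.29-fold higher). The rise of spp-1 was smaller, with 6.37 and 6.66 in baicalein, 6.22 and 6.29 in DMSO, and 5.53 and 5.52 in water (1.98-fold, limma, adjusted p = 0.00943), and it did not pass without water replicate 1 (adjusted p = 0.0672) or 2 (0.0735). The cap-binding gene ife-3, for a translation initiation factor of the eIF4E family, read 6.88 and 6.82 in baicalein, 8.09 and 8.06 in DMSO, and 5.71 and 5.59 in water (2.30-fold higher). The FOXA factor gene pha-4, which specifies the pharynx and also acts in longevity, read 2.4 and 2.36 in baicalein, 2.94 and 2.60 in DMSO, and 4.93 and 5.49 in water. It fell 7.11-fold (limma, adjusted p = 0.000406). Translation initiation and TOR genes as a list counted 1 higher, 8 lower and 7 not passing of 16 (4 lower without water replicate 1 and 3 without water replicate 2).

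The FOXO factor gene daf-16, the effector of insulin signalling, read 3.79 and 3.81 in baicalein, 4.28 and 4.33 in DMSO, and 4.69 and 5.04 in water. It fell 2.1-fold (log2 difference -1.07, 95% interval -1.51 to -0.63, limma, adjusted p = 0.00813), a call that was lost without water replicate 2 (-0.89, adjusted p = 0.0716), under repeated quantile normalization (adjusted p = 0.236) and under cyclic loess (adjusted p = 0.058). The kinase gene akt-1 read 3.39 and 3.58 in baicalein, 4.32 and 4.13 in DMSO, and 4.05 and 4.19 in water (-0.64, limma, adjusted p = 0.0464). That call was at the threshold. It was lost under repeated quantile normalization (0.04, limma, adjusted p = 0.936), cyclic loess (-0.24, adjusted p = 0.53) and with arrays centred (adjusted p = 0.0584). A variance trend (adjusted p = 0.101), a trial block (0.0729) and leaving out dim probe sets (0.0514) lost it too. The difference was -0.71 without water replicate 1, -0.57 without water replicate 2 and -0.54 without baicalein replicate 1, and the call held in none of these, nor without either DMSO array. Insulin and DAF-16 genes as a list counted 3 higher, 4 lower and 10 not passing of 17 (none lower without water replicate 2, nor under repeated quantile normalization or cyclic loess).

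The others did not pass as deposited. The phosphoinositide kinase gene age-1 read 2.37 and 2.71 in baicalein, 3.75 and 3.67 in DMSO, and 2.54 and 2.70 in water, so that baicalein and water overlapped (-0.08, 95% interval -0.54 to 0.38). Both PARP genes also overlapped: parp-1 read 3.82 and 3.25 in baicalein, 5.83 and 5.32 in DMSO, and 2.91 and 3.32 in water (0.42, interval -0.27 to 1.11, but 1.18 under repeated quantile normalization, limma, adjusted p = 0.0154, and 0.79 under cyclic loess, adjusted p = 0.0276), and parp-2 read 2.70 and 2.15 in baicalein, 4.92 and 4.47 in DMSO, and 2.12 and 2.74 in water (-0.01, interval -0.74 to 0.73). PARP enzymes consume NAD in DNA repair, as sirtuins do in deacetylation. The sirtuin gene sir-2.1 read 2.56 and 2.55 in baicalein, 3.35 and 3.31 in DMSO, and 2.86 and 3.15 in water (-0.45, interval -0.87 to -0.02, limma, adjusted p = 0.122). The peroxisomal catalase gene ctl-2 read 8.39 and 8.42 in baicalein, 7.35 and 7.26 in DMSO, and 8.32 and 8.38 in water, a difference of 0.06 with an interval of -0.33 to 0.44. For the TOR kinase gene let-363 the difference was -0.44 (interval -0.88 to 0.00), for its TORC2 partner gene rict-1 it was -0.36 (interval -0.90 to 0.17), and for the TORC1 partner gene daf-15 it was -0.83 (interval -1.50 to -0.16, limma, adjusted p = 0.0804). The daf-15 difference passed without baicalein replicate 1 (-1.22, adjusted p = 0.0096). For age-1, parp-1, parp-2 and ctl-2 the DMSO arrays stood apart from both other groups, higher in age-1 and the PARP genes and lower in ctl-2. The signs of the differences of age-1, parp-2, sir-2.1, ctl-2, let-363 and rict-1 changed with the scaling of the arrays, as did that of akt-1.

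**Figure D5:**
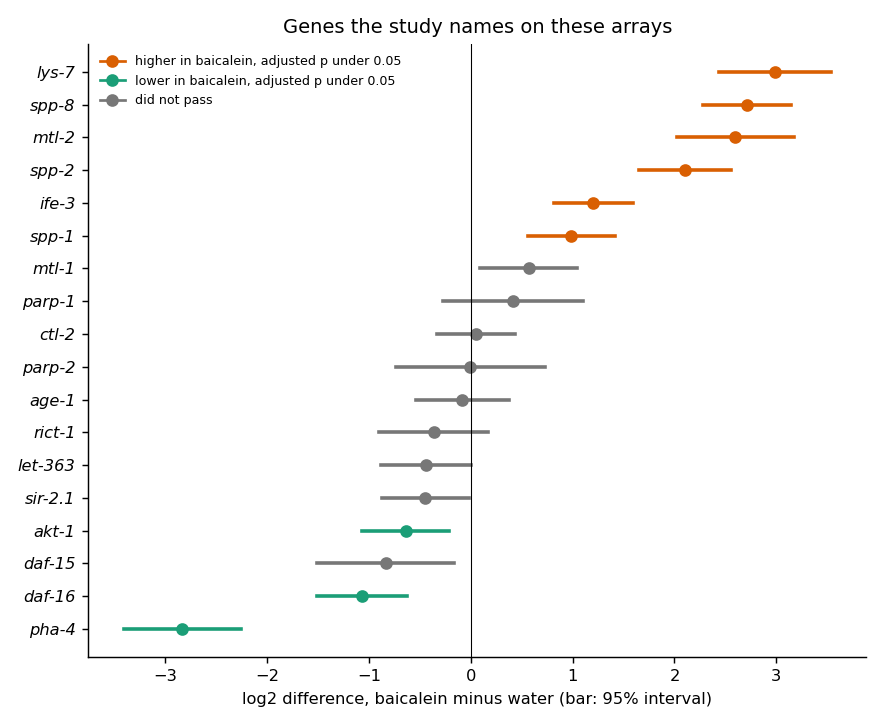
Log2 difference between baicalein and water for 18 genes named by the study (points) with the 95% interval of the limma fit (bars), orange for higher, green for lower and grey for not passing at an adjusted p under 0.05. The differences run from 2.98 for lys-7 to -2.83 for pha-4.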

How the data were processed

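RNA of whole worms was measured on the Affymetrix GeneChip Gene 1.1 ST array for C. elegans. The authors deposited log2 values made by RMA (background correction, log2 transformation and quantile normalization), whose array quartiles still differed; RMA carries no version in the sources used here, and no genome build was needed. Other deposited columns (probe set IDs, gene symbols and accessions) served only to name probe sets. The authors' own comparison columns (p-values, ratios, fold changes and sums of squares from an analysis of variance) were not used.

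One linear model over 6 arrays and 3 groups was fitted with limma 3.58.1 in R 4.3.3 (3 residual and 3.506 prior degrees of freedom), with the contrast of baicalein minus water, two-sided, and Benjamini-Hochberg adjustment over all probe sets. The fit was tested on simulated data. Names were looked up in the RefSeq gene table of WBcel235: 4301 by accession, 572 by symbol, 50 by locus tag and 34 as written in the deposited tables. For each gene the probe set with the highest mean was taken, and 29 probe sets with several genes were left out. Lists and members were chosen with earlier results of these data known. Named genes were the 10 largest calls in each direction, up to 4 members per list by p, the study's genes and the markers. One of the study's genes is not reported here. The alternatives were a variance trend, fewer arrays, rescaling, a filter on dim probe sets, a trial block, an analysis of variance and leaving out each array. The study's methods speak of 3 samples, and 2 arrays a group were analysed here. Deviations of same-numbered baicalein and water arrays correlated at r = -0.068, which cannot tell whether they shared a trial.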

Additional observations from a re-analysis of the deposited data

How the results depend on the processing

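No probe set called both as deposited and under an alternative changed direction. Only rescaling and leaving out a baicalein or water array can alter a difference, so under the other alternatives this was fixed in advance. Rescaled fits and fits on fewer arrays still share most data with the fit as deposited. A reversal between calls could hardly arise there either. With only the baicalein and water arrays fitted, 1506 probe sets were higher and 3800 lower. As deposited, 1992 probe sets were higher and 4513 lower. The higher count moved to 3097 under cyclic loess, 3817 by the methods' analysis of variance without adjustment (828 with it), 4461 at an unadjusted limma p, and 729 to 3406 when an array was left out. The lower count moved to 1626 by the adjusted analysis of variance and 2600 to 5419 when an array was left out. The median of all probe sets, 0.0705, became 0.09085 with arrays centred, 0.04121 under repeated quantile normalization, 0.01269 under cyclic loess, -0.3111 with dim probe sets left out, and 0.05013 to 0.07674 when an array was left out. Under repeated quantile normalization the sign changed for age-1 (0.6015), akt-1 (0.04027), ctl-2 (-0.1255), let-363 (0.2877), parp-2 (0.5049), rict-1 (0.3441) and sir-2.1 (0.2387), and under cyclic loess for age-1 (0.4615), ctl-2 (-0.001041), let-363 (0.03328), parp-2 (0.5142), rict-1 (0.07444) and sir-2.1 (0.09602). It also changed for parp-2 with arrays centred (0.01534). When an array was left out age-1 ranged from -0.255 to 0.09341 and parp-2 from -0.31 to 0.3033. The cause was not tested. With the trial number as replicate block 1846 were higher and 4354 lower. The correlation of same-numbered deviations was -0.068 for baicalein and water, 0.165 for baicalein and DMSO and -0.053 for DMSO and water. With so few arrays a group, these values cannot tell whether same-numbered arrays shared a trial.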

Other observations

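Several of the remaining large differences fell on genes of little known function. Among the 10 named genes that rose most were Y45F10C.2 (at least 202-fold), C35B1.4 (at least 305-fold), ZK813.7 (at least 211-fold), T12B5.15 (220-fold), ZC373.2 (at least 111-fold) and K11D12.13, for which 8.23 and 8.16 in baicalein and 7.46 and 7.7 in DMSO stood against 0.73 and 1.49 in water. For Y45F10C.2 the arrays read 9.2 and 9.14 in baicalein, 8.70 and 8.64 in DMSO, and 0.40 and 0.34 in water, and no array of one group came near the other. Among the 10 that fell most were dbd-13 (at least 90.3-fold), Y65B4BL.1 (102-fold), H10E21.4 (at least 51.4-fold) and the collagen gene col-17 (77.1-fold). For dbd-13 the arrays read 1.58 and 0.96 in baicalein, 1.17 and 1.26 in DMSO, and 8.19 and 7.83 in water. The largest fall of a named gene was that of rrn-4.4, a copy of the 5S ribosomal RNA genes, with 1.03 and 1.51 in baicalein, 2.1 and 2.15 in DMSO, and 9.51 and 8.54 in water. Copies of this RNA are near-identical, so its probe set may read others of them.

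Transthyretin-related genes, a secreted nematode family, counted 9 higher, 3 lower and 7 not passing of 19 (median 0.68, with 6 higher and 1 lower without water replicate 1). Ttr-42 was at least 59.6-fold higher, with 7.46 and 7.36 in baicalein, 7.23 and 6.77 in DMSO, and 0.77 and 1.09 in water, and ttr-27 was 8.29-fold lower. Of 11 ABC transporter genes 6 were lower and none higher (median -1.29, and -0.92 without water replicate 2). Among the 6 was the P-glycoprotein gene pgp-1 (1.95 and 1.51 in baicalein, 1.41 and 1.38 in DMSO, 3.27 and 3.60 in water). The fall depended on which comparison gave the name. Of 5 transporter genes named by baicalein against DMSO 1 was lower (median -0.12). Of 6 named by DMSO against water 5 were lower (median -1.63). Chemoreceptor genes, expressed in few sensory neurons, were at the background in both groups in 164 of 188, and 13 were higher and 6 lower (1 higher without either water array, 31 without baicalein replicate 1, and 4 higher with 7 lower under repeated quantile normalization). Of these srw-85 was at least 20.4-fold lower (1.21 and 1.49 in baicalein, 1.54 and 1.70 in DMSO, and 5.72 and 6.01 in water). Nuclear hormone receptors counted 1 higher and 5 lower of 34, F-box and SCF genes 7 higher and 3 lower of 43, and innexins and potassium channels 2 higher and 2 lower of 11. Without water replicate 1 or 2 these counts were lower, with no nuclear hormone receptor higher, 1 F-box gene lower, and 1 innexin or potassium channel gene in each direction. None of 5 genes of phenylalanine and tyrosine metabolism and none of 4 PARP and sirtuin genes passed. Of 6 short-chain dehydrogenases 1 was higher and 2 lower, of 6 antimicrobial peptide genes 2 were higher and 2 lower, and of 6 proteasome genes 2 were lower, and without either water array no call was left for the dehydrogenases and the proteasome. No antimicrobial peptide gene was lower without water replicate 2.

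Some of the widest differences lay in probe sets that the tables used here do not name. With means under the background raised to it, probe set 18575914 was at least 9.38 and 18540293 at least 8.98 higher in baicalein on the log2 scale, and 18581110 was at least 7.58 and 18601697 at least 7.61 lower.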
